A study of Mus musculus and Rattus norvegicus with 18 samples.

Results

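The nuclear-encoded subunits of respiratory complexes I, III, IV and V, with cytochrome c, were followed in hearts of mice with a conditional knockout of the tRNA methyltransferase gene Mettl1 and in a Mettl1-null cardiac cell line. Genes were taken by symbol: Nduf subunits (without assembly factors), Uqcr genes, Cyc1, Cycs, Cox4 to Cox8 genes and Atp5 genes, without pseudogenes. This gave 87 of 55487 gene IDs in the heart RNA table (38 of complex I, 9 of complex III, 21 of complex IV, 18 of complex V and Cycs), 82 of 17866 genes with a footprint frame, and 86 of 32883 IDs in the rat table. Ndufa4 and Ndufa4l2 were counted with complex IV. The series holds 18 samples. Hearts of 4-week-old C57BL/6 mice with the genotype label M1cKO (conditional knockout, cKO here) or Ctrl were profiled for RNA and for ribosome footprints (Ribo-seq reads the mRNA stretches that lie under ribosomes), with 2 libraries per genotype and assay. The labels name neither the Cre driver nor the floxed allele, and do not say whether a library is 1 animal or a pool. H9C2, a line from embryonic rat heart (strain label Sprague-Dawley) grown in high-glucose medium with serum, was measured by RNA-seq in 3 WT libraries and 3 of a single CRISPR-Cas9 line with a Mettl1 frameshift (M1-null). Nothing says that libraries of a group came from separate animals or cultures, so p-values measure the spread between these libraries, which may be technical.

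The respiratory chain sits in the inner mitochondrial membrane. Complex I oxidises NADH, complex III passes electrons from ubiquinol to the small carrier cytochrome c, complex IV (cytochrome c oxidase) reduces oxygen, and complex V (ATP synthase) uses the proton gradient to make ATP. A few catalytic subunits are encoded in mitochondrial DNA, and all others are made in the cytosol from nuclear genes and imported. The heart depends on this chain for most of its ATP, and it uses muscle isoforms of some cytochrome c oxidase subunits, which replace ubiquitous isoforms as cardiomyocytes mature after birth. Mettl1 is the enzyme that places N7-methylguanosine in several tRNAs.

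Depth was 15052652 to 16844783 counts per heart RNA library, 25171650 to 39675627 footprints per Ribo-seq library and 90321496 to 94202947 counts per H9C2 library. Mettl1 itself was at 3.76 to 4.31 CPM (counts scaled to library size with TMM factors) in Ctrl heart RNA and 2.49 to 2.52 in cKO, at 6.28 to 6.62 and 2.22 in footprints, and at 15.6 to 16.6 and 3.75 to 4.72 in WT and Mettl1-null H9C2. The subunit genes took 3.46% to 3.77% of heart RNA counts, 9.20% to 9.69% of footprints and 0.955% to 1.18% of H9C2 counts. Of the 9 cardiomyocyte markers, all were detected in the heart, and their summed RNA level was 59190 to 59480 CPM in Ctrl and 54220 to 54920 in cKO, with 5 called lower. The 8 endothelial markers summed to 2271 to 2281 and 1972 to 2033 CPM (3 lower) and the 7 erythroid markers to 1457 to 1592 and 1594 to 2496 (3 higher). Smooth muscle and pericyte markers summed to 1109 to 1115 and 962.5 to 983.6 CPM of RNA (1 lower). Macrophage markers were at 629 to 656.3 and 680 to 748 (none called), and fibroblast markers overlapped, at 2758 to 3006 and 2945 to 3109. Of 7 myoblast markers only 1 was tested, and it was called higher. Their sums were 1548 to 1686 and 2271 to 2319 CPM. In footprints the cardiomyocyte markers summed to 156800 to 164500 CPM in Ctrl and 135400 to 135800 in cKO (4 lower). The part of these shifts in the values below was not tested, and in whole hearts fewer cells of a type and less RNA per cell cannot be told apart. In H9C2 the cardiomyocyte markers Ryr2 and Myl2 were at 0. The cardiomyocyte list summed to 25.5 to 27.9 CPM in WT and 12.8 to 14.7 in Mettl1-null cells, and of its 4 tested genes 1 was called higher and 1 lower, with a median log2 change of 0.69. Fibroblast markers summed to 11470 to 12430 CPM in WT and 9358 to 9816 in Mettl1-null cells (4 lower and 1 higher of 6 tested). Myoblast markers summed to 421.2 to 465.2 and 584.6 to 611.9 CPM (3 higher and 1 lower of 4 tested). Smooth muscle and pericyte markers overlapped, at 6331 to 7572 and 7015 to 7292 CPM (3 higher and 2 lower of 7 tested). The part of these shifts in the H9C2 values below was not tested.

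In Ctrl hearts the subunit mRNAs carried many footprints for their RNA. The log2 ratio of footprint CPM to RNA CPM had a median of 1.53 over the 77 subunit genes tested in both assays and of -0.32 over all 12662 genes, and 67 of the 77 (87.0%) lay above the all-gene median. By complex, the median ratio was 1.84 for complex I, 1.105 for complex III, 0.77 for complex IV and 0.998 for complex V. Among genes with up to 100 codons, the subunit genes had a median of 1.72 and the others one of -1.64, and above 300 codons the medians were 1.38 and -0.31. At the top was Ndufb2, a membrane-arm subunit of complex I, with a log2 ratio of 5.67 that rests on an RNA level of only 9.78 and 10.9 CPM. Per codon, footprint density in Ctrl was highest for Ndufa4 (32.6 CPM per codon) in complex IV and for Atp5e, the epsilon subunit of the ATP synthase rotor, in complex V (31.6). It was 12.8 for Uqcrq, a small complex III subunit, and 10.6 for Ndufa5 in complex I.

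**Figure D1:**
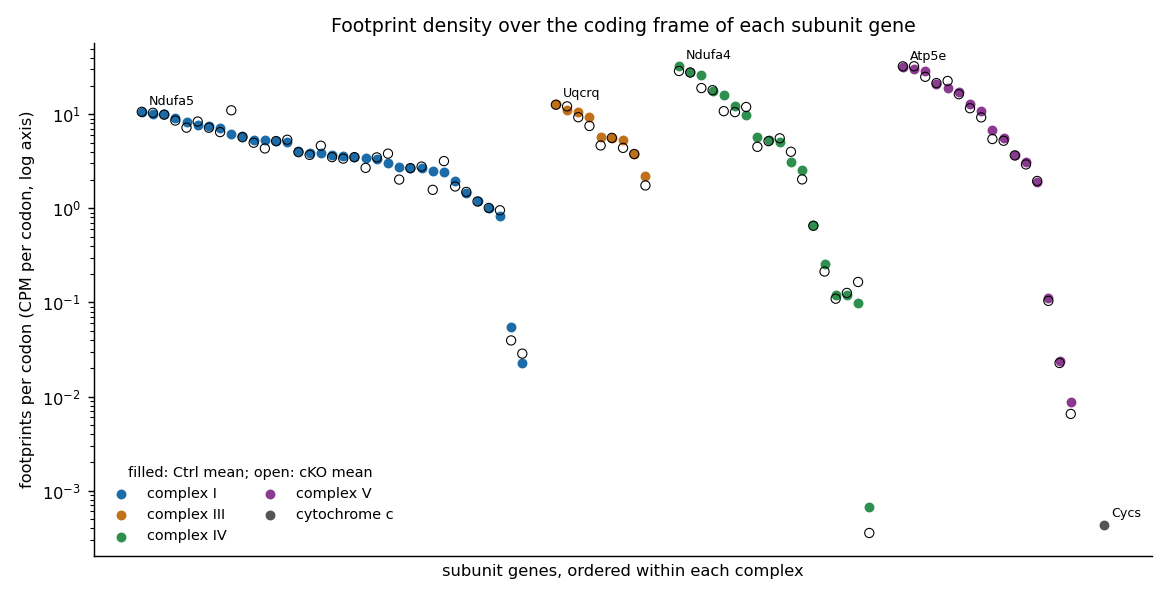
Mean footprint density (CPM per codon of the counted frame, log axis) of each subunit gene with any footprint, ordered within its complex; filled points are Ctrl means and open points cKO means of 2 libraries each. Ndufa4 is highest at 32.6 CPM per codon, and a separate group of genes with hardly any footprints lies far below the rest.

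A separate group of subunit genes had RNA but hardly any counted footprints. Cycs had 3 footprints in all 4 libraries together, and Atp5g2 had none. Atp5g1, Cox7c, Cox7a2l, Atp5l, Ndufs5 and Ndufb4 had log2 ratios between -9.45 and -3.62, under the 5th percentile of all genes. How reads that match several places in the genome were counted is not stated in the labels or headers, and Cycs for one is known for many processed copies. Their footprint values are therefore reported as uncertain. The 6 that were tested are part of the footprint and translational efficiency counts below, which are also given without them.

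Across the heart RNA libraries, subunit genes were called in both directions. edgeR's quasi-likelihood test called 14 of the 80 tested subunit genes higher and 10 lower in cKO at an adjusted p of 0.05 (24, or 30.0%, where 14.4% of all 14088 tested genes were called, 8.16% higher and 6.26% lower). The other 7 gene IDs held at most 31 counts in all and were not tested. The median log2 fold change of the subunit genes was 0.07, beside 0.00 for all genes, and it was -0.01 without cKO replicate 1, -0.005 without Ctrl replicate 2 and 0.15 without cKO replicate 2. Of the 24 calls, 12 were in complex I (10 higher, 2 lower), 4 in complex III (1 higher, 3 lower), 5 in complex IV (2 higher, 3 lower) and 3 in complex V (1 higher, 2 lower). In 44 subunit genes the Ctrl and cKO libraries did not overlap (25 higher, 19 lower), which held for 55.0% of all genes (27.8% higher, 27.2% lower). The balance of directions rested on single libraries: without cKO replicate 1 the counts were 8 higher and 13 lower, without cKO replicate 2 they were 21 and 5, and without Ctrl replicate 1 they were 20 and 5. DESeq2 called 7 higher and 6 lower. A total of 11 of the 24 genes kept their call under every alternative, among them Ndufs1, Ndufa11, Ndufb6, Ndufs8, Uqcrc1, Cox6a2, Cox7a2, Cox8a, Atp5b and Atp5j2.

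Among footprints the balance was the other way round, with 7 of 77 tested subunit genes called higher and 13 lower (20 called, where 16.4% of all 13514 genes were, 9.11% higher and 7.33% lower). The median log2 change was -0.05, beside 0.00 for all genes, and 0.02 with library totals. Without the 6 genes with hardly any footprints, 6 of 71 were higher and 13 lower. Complex I had 3 higher and 4 lower, complex III 0 and 4, complex IV 3 and 4, and complex V 1 and 1. The libraries did not overlap for 10 higher and 31 lower subunit genes, beside 28.7% of all genes higher and 27.1% lower (55.9% in all). Without cKO replicate 1 the calls were 2 higher and 7 lower, and with library totals as the only scaling they were 8 higher and 7 lower. Summed over all 82 genes, footprints came to 97316 and 98967 CPM in Ctrl and 92401 and 90101 CPM in cKO, a mean of 98141 ± 1167 against 91251 ± 1626 (SD, n = 2 each). The sums did not overlap, although 2 against 2 libraries cannot go below an exact permutation p of 0.333. As a share of all footprints, without TMM factors, the subunit genes had 9.33% and 9.69% in Ctrl and 9.36% and 9.20% in cKO, and the groups overlapped. The RNA sums overlapped, at 37078 and 35714 CPM in Ctrl and 36714 and 34169 in cKO.

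**Figure D2:**
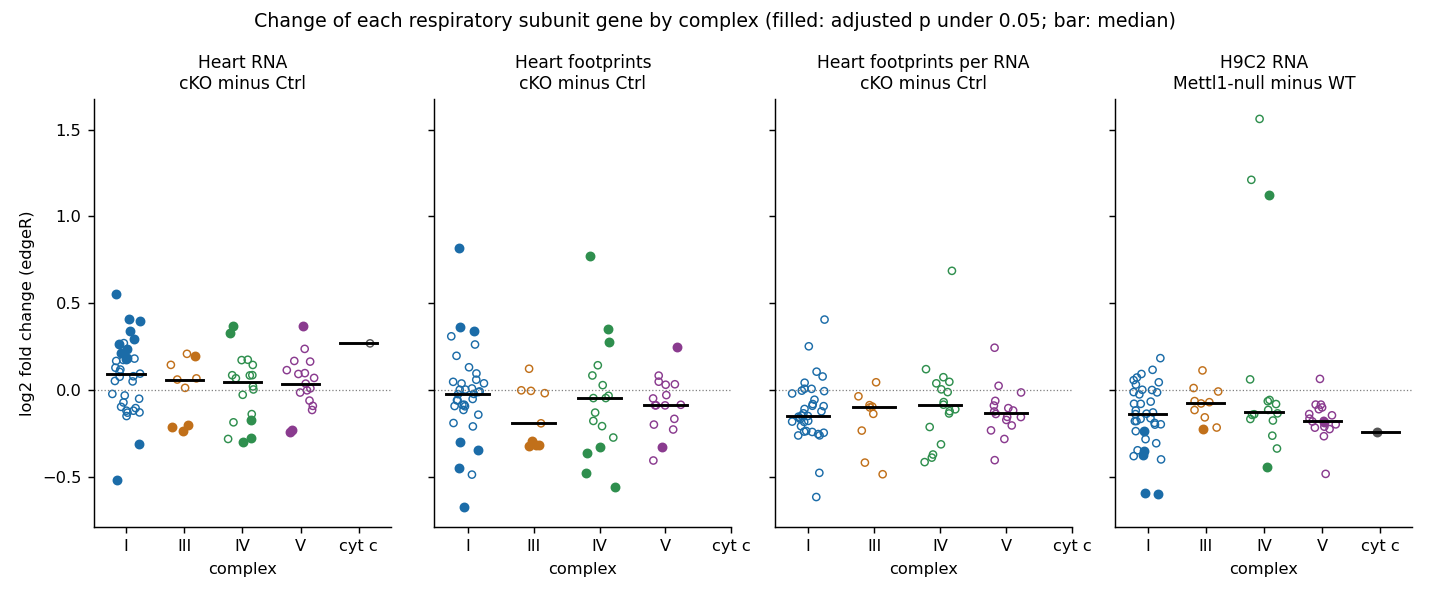
Log2 fold change of every tested subunit gene (y axis) by complex (x axis) in heart RNA, heart footprints, the footprint-to-RNA interaction and H9C2 RNA; filled points passed an adjusted p of 0.05 in edgeR and bars are medians. Complex I has its filled points mostly above 0 in heart RNA, and in H9C2 all filled points but Cox6a2 lie below 0.

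Complex I held both ends of the range. Ndufs1, the largest core subunit and a carrier of iron-sulphur clusters in the NADH-oxidising arm, lies on chromosome 1 (chr1:63143592-63176822, GRCm38.p6). Its RNA was 519 and 499 CPM in Ctrl and 358 and 354 in cKO, and its footprints were 1931 and 1719 in Ctrl and 1142 and 1148 in cKO. All cKO libraries lay well under all Ctrl libraries in both assays. The RNA fell by 0.51 ± 0.05 on the log2 scale (SE, edgeR, adjusted p = 9.58e-06), and the footprints fell by 0.67 ± 0.08 (adjusted p = 3.18e-05). Ndufc1, a short membrane-arm subunit on chromosome 3 (chr3:51405479-51408955), went the other way. Its footprints were 474 and 475 CPM in Ctrl and 843 and 833 in cKO, a rise of 0.82 ± 0.07 (adjusted p = 2.37e-06) that kept its call in every alternative. Ndufc1 RNA was 99.4 and 80.1 CPM in Ctrl and 130 and 107 in cKO, with 0.40 ± 0.10 (adjusted p = 0.0129), and this call was lost with DESeq2 and without cKO replicate 1. Ndufc2, the partner subunit next to Ndufc1 in the complex, had lower footprints, 400 and 415 CPM in Ctrl and 313 and 329 in cKO (-0.34, adjusted p = 0.00574). Its RNA did not pass (-0.13, adjusted p = 0.223).

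Of the 7 nuclear core subunits of complex I, which bind the flavin and the iron-sulphur clusters, 2 were called higher in RNA, among them Ndufs8, and 1 lower, Ndufs1. Ndufs8 RNA was 164 and 168 CPM in Ctrl and 208 and 200 in cKO (0.30, adjusted p = 0.0026). Its footprints did not show this, with 532 and 599 CPM in Ctrl and 577 and 603 in cKO (0.06, adjusted p = 0.684), and the libraries overlapped. Ndufv1, which carries the flavin that takes electrons from NADH, had lower footprints: 2492 and 2444 CPM in Ctrl, 2085 and 1939 in cKO (-0.30, adjusted p = 0.0136). Its RNA change of -0.15 did not pass (adjusted p = 0.0786).

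The 28 tested accessory subunits of complex I surround the core and are needed for its assembly and stability. They had 8 higher and 1 lower RNA call and a median of 0.10, beside 8.16% higher and 6.26% lower of all genes. In footprints they had 3 higher and 2 lower calls and a median of -0.001, beside 9.11% and 7.33% of all genes. Ndufb6 RNA was 106 and 105 CPM in Ctrl and 149 and 132 in cKO (0.41, adjusted p = 0.000699), and its footprints were 389 and 383 in Ctrl and 489 in both cKO libraries (0.34, adjusted p = 0.00497). Ndufa7 rose in both assays as well, with 135 and 123 CPM against 180 and 146 in RNA (0.34, adjusted p = 0.0139) and 245 and 312 against 351 and 368 in footprints (0.37, adjusted p = 0.0184). The RNA call of Ndufa7 was lost without cKO replicate 1 (0.18 to 0.48 over the alternatives), and the footprint call without Ctrl replicate 1 or cKO replicate 2 (0.20 to 0.55). Ndufb2 rose in RNA from 9.78 and 10.9 CPM to 14.46 and 15.96 (0.56, adjusted p = 0.00808) but not in footprints (0.10, adjusted p = 0.538). Its RNA call was lost in 2 of 10 alternatives, 1 of them DESeq2, and the change ran from 0.48 to 0.64. The other higher RNA calls, Ndufb3, Ndufb7, Ndufb5 and Ndufb9, lay between 0.18 and 0.27 on the log2 scale, and each lost its call in 3 to 6 of 10 alternatives. Ndufa11, a membrane-arm subunit at the contact with complex III, was the only lower accessory RNA call: 157 and 152 CPM in Ctrl, 127 and 123 in cKO (-0.31, adjusted p = 0.00265). Its footprints were 382 and 408 in Ctrl and 297 and 282 in cKO (-0.45, adjusted p = 0.000956).

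In complex III, both core proteins and the Rieske protein fell in both assays, and Cyc1 did not pass. Of the 5 small subunits, 1 was called higher in RNA and 1 lower in footprints. Uqcrc1 and Uqcrc2 are the core proteins that face the matrix, and Uqcrfs1 is the Rieske iron-sulphur protein that takes electrons from ubiquinol. Uqcrc1 RNA was 1413 and 1412 CPM in Ctrl and 1194 and 1204 in cKO (-0.24, adjusted p = 0.00243), and its footprints were 2737 and 2826 in Ctrl and 2301 and 2179 in cKO (-0.31, adjusted p = 0.00902). Uqcrc2 changed by -0.21 in RNA and by -0.29 in footprints (adjusted p = 0.0108 and 0.0163), and Uqcrfs1 by -0.20 and -0.32 (adjusted p = 0.0153 and 0.00948). The libraries of these 3 genes did not overlap in either assay. The RNA call of Uqcrfs1 was lost in 5 of 10 alternatives and that of Uqcrc2 in 3, and the footprint call of Uqcrc2 in 4 of 12. Cyc1, which holds the haem that hands electrons to cytochrome c, was at 0.01 in RNA and 0.00 in footprints (adjusted p = 0.892 and 0.986). Uqcrq, a small subunit by cytochrome b, rose in RNA (0.20, adjusted p = 0.0354) and was at -0.02 in footprints (adjusted p = 0.926). Uqcrb, another small subunit, was at 0.15 in RNA (adjusted p = 0.296), and its footprints fell from 220 and 265 CPM to 184 and 205 (-0.32, adjusted p = 0.032). Scaling by library totals ended this call, as did leaving out Ctrl replicate 2 or cKO replicate 1.

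In complex IV, the muscle isoform Cox7a1 fell in footprints, and the ubiquitous isoforms Cox7a2 and Cox8a rose in both assays. The footprint call of Cox7a2 was lost without Ctrl replicate 1, cKO replicate 1 or cKO replicate 2 (0.15 at the lowest, adjusted p up to 0.226), and that of Cox8a without cKO replicate 1, while their RNA calls and the footprint call of Cox7a1 held in every alternative. Cox7a1 is the heart and muscle isoform of subunit VIIa and Cox7a2 the ubiquitous one. Cox7a1 footprints were 2237 and 1987 CPM in Ctrl and 1515 and 1526 in cKO (-0.47 ± 0.08, adjusted p = 0.000706), and its RNA was 267 and 220 in Ctrl and 220 and 181 in cKO (-0.28 ± 0.09, adjusted p = 0.0534). Cox7a2 footprints were 740 and 894 CPM in Ctrl and 994 and 990 in cKO (0.28 ± 0.09, adjusted p = 0.0416), and its RNA was 191 and 183 in Ctrl and 252 and 232 in cKO (0.37 ± 0.06, adjusted p = 0.000644). As a share of the counts of the 2 genes, not corrected for length, Cox7a1 held 58.3% and 54.6% of RNA in Ctrl and 46.6% and 43.9% in cKO, and 75.2% and 69.0% of footprints in Ctrl and 60.4% and 60.7% in cKO. In mean terms the share was 56.5% ± 2.64 against 45.3% ± 1.93 in RNA and 72.1% ± 4.37 against 60.5% ± 0.20 in footprints (SD, n = 2 each). The groups did not overlap, and the smallest exact permutation p that 2 against 2 allows is 0.333.

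**Figure D3:**
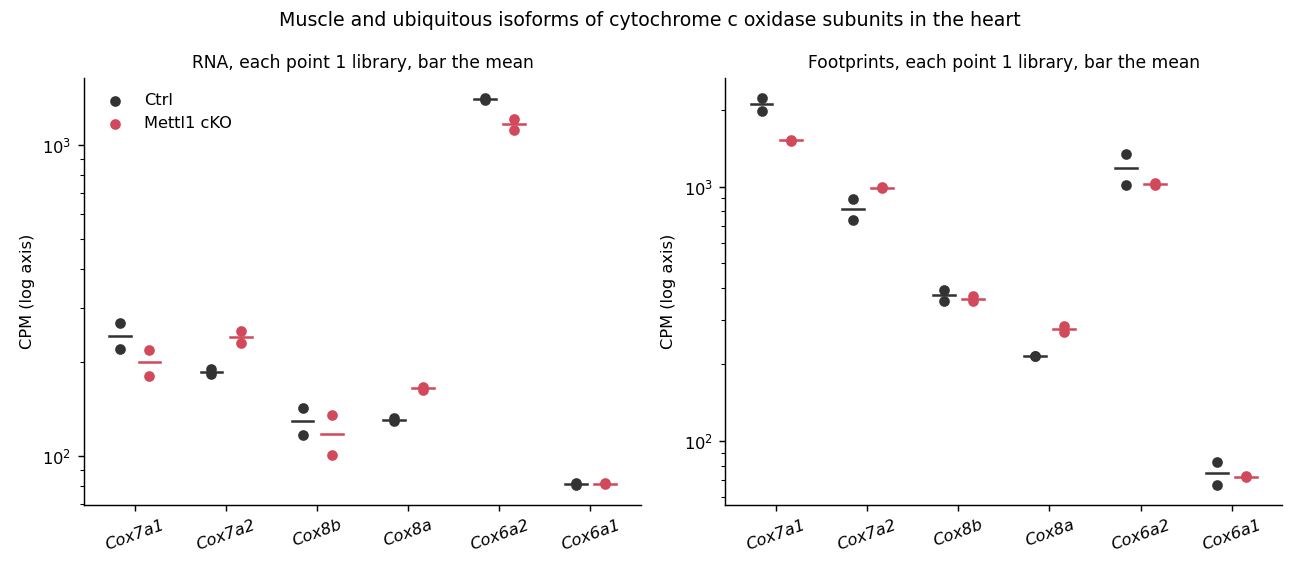
CPM (log axis) of muscle (Cox7a1, Cox8b, Cox6a2) and ubiquitous (Cox7a2, Cox8a, Cox6a1) isoform genes in each heart library, RNA on the left and footprints on the right, with bars for the mean of 2 libraries. Cox7a2 and Cox8a are higher in both cKO libraries than in both Ctrl libraries in both assays, and Cox7a1 footprints are lower.

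Subunits VIII and VIa have such pairs too. Cox8a, the ubiquitous form of subunit VIII, rose in RNA from 130 and 132 CPM to 163 and 167 (0.33, adjusted p = 0.00133) and in footprints from 216 in both Ctrl libraries to 284 and 267 (0.35, adjusted p = 0.00513). Cox8b, its muscle form, did not pass in either assay (-0.14 in RNA, adjusted p = 0.479, and -0.04 in footprints, adjusted p = 0.776). The Cox8b share of the pair was 62.3% and 64.5% of footprints in Ctrl and 55.6% and 58.1% in cKO, and in RNA 52.3% and 47.0% against 45.3% and 37.6%. Cox6a2, the muscle form of subunit VIa, fell in RNA from 1417 and 1394 CPM to 1209 and 1118 (-0.27, adjusted p = 0.00173), with -0.21 in footprints (adjusted p = 0.205). Cox6a1, the ubiquitous form, was at 0.01 and -0.04 (adjusted p = 0.971 and 0.828), and Cox6a2 held 93.2% to 94.5% of the pair's RNA in all 4 libraries. The RNA of Cox4i1 fell by 0.17 (adjusted p = 0.0404), with -0.03 in its footprints (adjusted p = 0.842). The minor isoforms Cox4i2, Cox6b2 and Ndufa4l2 were not called in the heart.

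Other complex IV subunits differed mostly in footprints. Cox7b, a small membrane subunit, had 1341 and 1196 footprint CPM in Ctrl and 785 and 943 in cKO (-0.55 ± 0.09, adjusted p = 0.00072), with an RNA change of -0.18 that did not pass (adjusted p = 0.0959). Cox6c fell in both assays, by 0.30 in RNA (adjusted p = 0.0289) and by 0.36 in footprints (adjusted p = 0.0401), and lost each call in 4 alternatives. Cox5b, a zinc-binding subunit on the matrix side, had footprints of 318 and 340 CPM in Ctrl and 234 and 290 in cKO (-0.33, adjusted p = 0.0286), beside an RNA change of 0.07 (adjusted p = 0.562). This call was lost with library totals, without Ctrl replicate 2 and without cKO replicate 1, and the change ran from -0.49 to -0.19 over the alternatives. Cox7c was called higher in footprints (0.78, adjusted p = 0.0132) from only 7.19 and 5.10 CPM in Ctrl and 12.18 and 8.602 in cKO, and it belongs to the uncertain group.

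The pairs of subunits VIIa and VIII were also set side by side at the level of sequence. The lines below give the 250 bases before a RefSeq start of each gene, read in its own direction, with every CpG dinucleotide in capitals, because the pairs differ in it. The Cox7a2 stretch lies inside the span of its gene (chr9:79755241-79771422), before an internal start. The other stretches adjoin the outer end of their genes, so Cox7a1 and Cox7a2 are not compared at like starts. Cox7a1 (chr7:30183921-30184170, plus strand) and Cox8b (chr7:140900447-140900696, minus strand) are the muscle forms, and Cox7a2 (chr9:79759854-79760103, minus strand) and Cox8a (chr19:7217617-7217866, minus strand) the ubiquitous ones, all in GRCm38.p6.
Cox7a1: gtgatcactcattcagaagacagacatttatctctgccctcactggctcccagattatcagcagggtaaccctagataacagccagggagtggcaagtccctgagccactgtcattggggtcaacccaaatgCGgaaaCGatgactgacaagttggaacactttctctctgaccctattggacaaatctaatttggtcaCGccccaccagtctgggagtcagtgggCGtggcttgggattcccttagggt
Cox7a2: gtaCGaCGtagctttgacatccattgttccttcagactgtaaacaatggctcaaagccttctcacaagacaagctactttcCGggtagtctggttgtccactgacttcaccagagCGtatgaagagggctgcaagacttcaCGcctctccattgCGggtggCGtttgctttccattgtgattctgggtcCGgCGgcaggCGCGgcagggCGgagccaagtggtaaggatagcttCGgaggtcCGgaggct
Cox8b: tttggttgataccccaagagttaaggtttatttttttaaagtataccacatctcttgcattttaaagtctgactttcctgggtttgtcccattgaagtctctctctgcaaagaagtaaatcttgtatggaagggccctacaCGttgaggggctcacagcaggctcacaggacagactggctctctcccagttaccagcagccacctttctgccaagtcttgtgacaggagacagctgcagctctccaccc
Cox8a: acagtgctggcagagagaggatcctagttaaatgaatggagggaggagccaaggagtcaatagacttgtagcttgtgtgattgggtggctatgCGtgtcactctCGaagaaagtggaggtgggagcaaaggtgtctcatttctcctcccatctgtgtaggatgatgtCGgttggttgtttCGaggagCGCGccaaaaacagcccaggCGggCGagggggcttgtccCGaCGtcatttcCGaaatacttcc
The counts of CpG were 4 for Cox7a1, 14 for Cox7a2, 1 for Cox8b and 11 for Cox8a. Over the 66 of 86 subunit gene symbols with a promoter in the RefSeq table, the median was 14 CpG in these 250 bases (quartiles 10 and 20), and over all 27025 genes it was 6 (quartiles 2 and 16). Cox8b and Cox7a1 had the lowest counts among the 66, the latter tied with Ndufc2. CpG was counted after the sequences had been seen.

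Complex V had few calls. Atp5b, the catalytic beta subunit, had 5315 and 5249 CPM of RNA in Ctrl and 4497 and 4450 in cKO (-0.24 ± 0.04, adjusted p = 0.000911), and 15330 and 15040 footprint CPM in Ctrl and 13520 and 12980 in cKO (-0.20, adjusted p = 0.0793). Atp5a1, the alpha subunit that alternates with beta in the catalytic ring, was at -0.08 in footprints (adjusted p = 0.524). The footprints of Atp5c1, the gamma subunit that forms the central stalk, fell from 1895 and 2182 CPM to 1593 and 1660 (-0.33, adjusted p = 0.0129), and its RNA was at -0.11 (adjusted p = 0.138). The same 3 alternatives that ended the Uqcrb call ended that of Atp5c1. Atp5j2, the f subunit of the membrane part, rose in both assays: 563 and 513 CPM of RNA in Ctrl and 752 and 640 in cKO (0.37, adjusted p = 0.00193), and 1622 and 1723 footprint CPM in Ctrl and 2078 and 1906 in cKO (0.25, adjusted p = 0.0377). The footprint call of Atp5j2 was lost without 3 single libraries. The 3 genes Atp5g1, Atp5g2 and Atp5g3 encode the same mature c subunit of the rotor ring. Atp5g3 RNA fell by 0.23 (adjusted p = 0.0378), and its share of the RNA of the 3 genes was 53.5% and 53.2% in Ctrl and 50.5% and 47.5% in cKO. Atp5g3 footprints were at 0.04 (adjusted p = 0.828), and those of the other 2 genes are uncertain. Cytochrome c itself, Cycs, had 146 and 179 CPM of RNA in Ctrl and 181 and 211 in cKO (0.27, adjusted p = 0.0532).

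RNA and footprint calls pointed the same way where they met. A total of 6 genes were higher in both assays (Ndufb6, Ndufa7, Ndufc1, Cox7a2, Cox8a and Atp5j2) and 6 were lower in both (Ndufs1, Ndufa11, Uqcrc1, Uqcrc2, Uqcrfs1 and Cox6c), and none was called in opposite directions, which held for all 12662 genes too. The 12 genes are among 24 RNA calls and 20 footprint calls. Over all genes tested in both assays, 60.4% of RNA calls and 54.6% of footprint calls were shared. Across the 77 genes Pearson's r between the changes was 0.67, beside 0.70 over all genes, given as a description, since genes are not independent replicates. In 7 genes with a call in either assay the signs differed, among them Ndufb5, Ndufb9 and Uqcrq (higher RNA only), Atp5g3 (lower RNA only), and Cox5b and Uqcrb (lower footprints only).

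**Figure D4:**
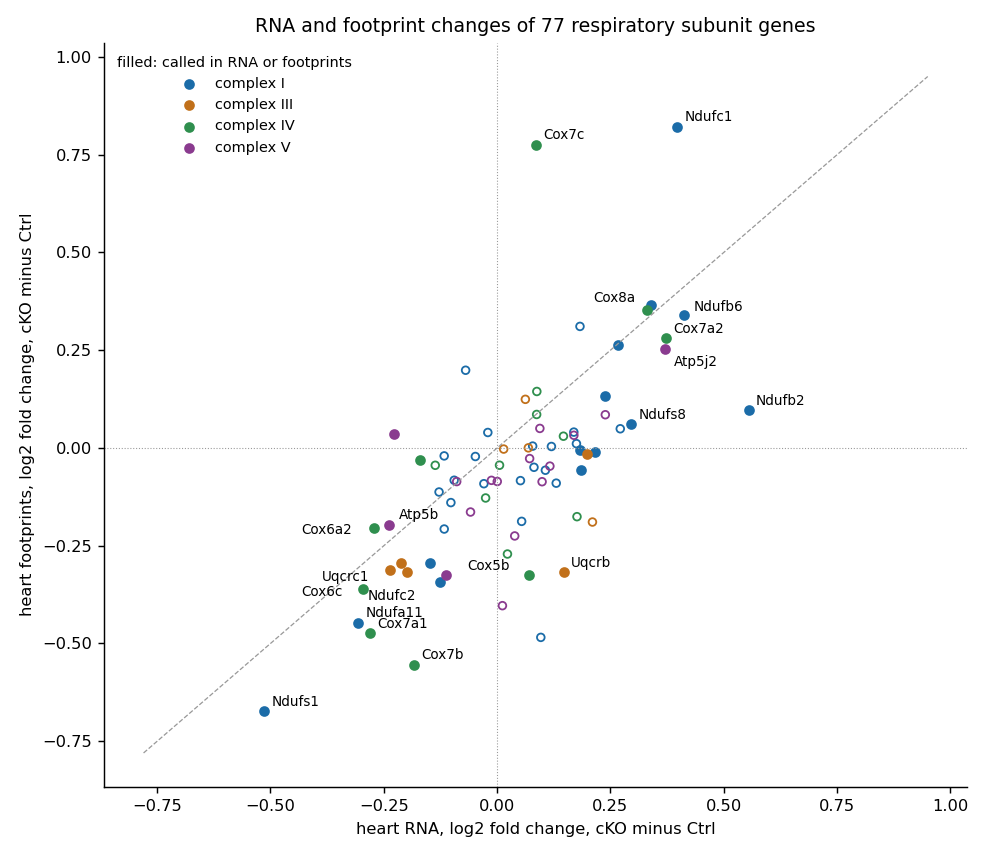
Log2 fold change in heart RNA (x axis) against that in footprints (y axis) for the 77 subunit genes tested in both assays, coloured by complex, with the line of equality dashed; filled points were called in either assay. Ndufs1 is at the lower left and Ndufc1 at the upper right, and more points lie below the line than above it.

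Translational efficiency, the change of footprints beyond that of RNA, was tested as an interaction over the 8 heart libraries. The main fit did not pair RNA and footprint libraries. In it no subunit gene passed an adjusted p of 0.05 in edgeR (0 of 77, where 0.126% of 12662 genes were called, 0.0711% higher and 0.0553% lower). None did in DESeq2, also without pairing. RNA and footprint libraries carry the same numbers, and with each such pair joined as a block 2 subunit genes passed: Uqcr10 (-0.41, adjusted p = 0.0212) and Cox7c (0.67, adjusted p = 0.00532), whose footprints are among the uncertain ones. In that fit 48 genes were called higher and 86 lower of all 12662 (1.06%). At an unadjusted p under 0.05 there were 19 subunit genes of 77 and 1227 of all genes. The log2 change was below 0 for 61 of the 77, beside 6806 of all 12662 genes, with a median of -0.12 against -0.02. Without the 6 genes with hardly any footprints it was below 0 for 57 of 71, with the same median. By complex, the median was -0.145 for complex I (28 of 35 below 0), -0.10 for complex III (8 of 9), -0.08 for complex IV (11 of 17) and -0.13 for complex V (14 of 16). Such medians were not particular to the subunit genes: cardiomyocyte markers had -0.16, complex II -0.13 and 6 mitochondrially encoded subunits -0.24. Supercomplex and cristae genes had -0.13 and complex IV assembly factors -0.135. Assembly factors of complexes I, III and V had -0.08, -0.04 and 0.025, and regulators of mitochondrial genes -0.04. The median over all 77 stayed below 0 under every alternative, between -0.15 and -0.05, and that of complex IV ranged from -0.15 to 0.00. The lowest unadjusted p values belonged to Uqcrb (-0.48), Cox5b (-0.41) and Uqcr10 (-0.42), with adjusted p values of 0.297, 0.325 and 0.332.

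The RNA change differed by the length of the encoded protein. By frame length, the median log2 RNA change was 0.13 for the 24 subunit genes with up to 100 codons, 0.09 for the 37 with over 100 and up to 200, -0.05 for the 9 with over 200 and up to 300 and -0.13 for the 10 with more than 300, where 4 were called lower and 1 higher, beside 673 lower and 594 higher of 9296 other genes of that length. All other genes showed a smaller gradient the same way, with medians of 0.09, 0.09, 0.04 and -0.03. Without cKO replicate 1 the subunit medians were -0.05, 0.00, -0.11 and -0.16, and without cKO replicate 2 they were 0.28, 0.16, 0.01 and -0.11, so the values of the short genes moved with single libraries. In footprints the medians were -0.02, -0.02, -0.09 and -0.20, against 0.11, 0.05, 0.03 and -0.01 for other genes. Subunit genes over 300 codons had the lowest of the 4 medians in each of these cases.

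Other genes of the chain were read from fixed lists. Complex II, the entry point from succinate, had 2 of 4 subunits called lower in RNA and in footprints and none higher: Sdha changed by -0.32 and -0.43 (adjusted p = 0.000264 and 0.000981) and Sdhb by -0.21 and -0.62 (adjusted p = 0.0164 and 5.12e-05). Of the 13 mitochondrially encoded subunits, 9 were called lower in RNA and none higher (median -0.24), among them mt-Nd5 at -0.36 (adjusted p = 3.08e-05) and mt-Co1 at -0.24 (adjusted p = 0.000238). Only 6 of them were tested in footprints, with 3 lower. Of the assembly factors, those of complex I had 1 higher and 2 lower of 18 in RNA, a share near the 14.4% of all genes, and 3 and 3 in footprints. Those of complex IV had 6 higher and 2 lower of 20 in RNA and 4 and 5 of 21 in footprints. Those of complex III had 0 and 0 of 6 in RNA and 1 and 2 of 6 in footprints, and those of complex V 1 and 0 of 4 in each assay. Cox19, a copper-handling factor of complex IV, rose by 0.89 (adjusted p = 3.26e-06), and Cox15, which makes haem A, fell by 0.39 (adjusted p = 0.0029). The list of supercomplex and cristae genes had 2 of 12 lower in RNA and 4 lower and 1 higher of 12 in footprints. It held the only translational efficiency call of these lists, Phb (-1.39, adjusted p = 0.0158). Among 18 regulators of mitochondrial genes, Ppargc1a, which encodes the coactivator PGC-1alpha, was the only lower call in RNA (-0.97 ± 0.07, adjusted p = 4.85e-07), and Pprc1, a related coactivator, the only higher one (0.39, adjusted p = 0.0239). Nrf1, Esrra, Gabpa, Yy1 and Tfam lay between -0.21 and 0.02 and did not pass.

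Motifs for such regulators were counted in the 300-base RefSeq promoters (250 bases before to 50 after the start), on both strands. The core of the NRF1 motif, GCATGCGC, was in 10 of 66 subunit promoters (15.2%) and in 3.05% of all 27025 genes. The full NRF1 motif, which is this core with GC before it and contains it, was in 5 (7.6%) and 1.07%. The YY1 motif AAGATGGC was in 10 (15.2%) and 3.19%, with 7 of the 31 complex I promoters. The ETS motif CCGGAAGT was in 7.6% and 4.31%, the estrogen-related receptor motif TCAAGGTCA in 1.5% and 0.47%, and the TATA box TATAAA in 10.6% and 15.67%. The NRF1 and ETS motifs contain CpG and the YY1 motif does not. Subunit promoters held more CpG than all genes, with medians of 14 and 6. The part of base composition in these shares was not tested. The full NRF1 motif was in the promoters of Ndufa11, Uqcrc1, Cox6a1, Atp5g2 and Atp5k. The first 2 are lower RNA calls and the others were not called. In 4 of the 5 it lies before the start, and these stretches are shown with the motif in capitals, because it is the same run of letters in subunits of 3 complexes. Ndufa11 is at chr17:56717677-56717736 (plus strand), Cox6a1 at chr5:115349086-115349145, Atp5g2 at chr15:102671055-102671114 and Atp5k at chr5:108434415-108434474 (all minus strand).
Ndufa11: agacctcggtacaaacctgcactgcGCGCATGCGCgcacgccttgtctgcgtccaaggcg
Cox6a1: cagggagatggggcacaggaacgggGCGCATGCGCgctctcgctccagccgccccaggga
Atp5g2: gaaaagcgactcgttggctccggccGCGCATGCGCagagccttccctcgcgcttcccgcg
Atp5k: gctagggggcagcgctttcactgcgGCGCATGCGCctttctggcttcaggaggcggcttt
The motif begins 60 bases before the start in Ndufa11, 162 in Cox6a1, 42 in Atp5g2 and 50 in Atp5k. A match describes letters and not binding.

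In H9C2 cells the share of subunit genes that passed the test was under that of all genes. edgeR called 1 of 81 tested subunit genes higher and 9 lower in Mettl1-null cells (12.3% called, where 25.1% of all 14801 genes were, 13.6% higher and 11.5% lower). The log2 change was below 0 for 65 of 81 genes, with a median of -0.14 beside 0.00 for all genes (-0.05 without WT replicate 2, -0.24 without WT replicate 3), and by complex the median was -0.14 for I, -0.07 for III, -0.12 for IV and -0.175 for V. Libraries did not overlap for 3 higher and 19 lower genes, beside 22.8% and 19.8% of all genes (42.6% in all). Summed over the 86 genes, RNA was 11093, 12098 and 9925 CPM in WT and 9414, 10345 and 10162 in Mettl1-null cells, so WT replicate 3 lay within the range of the Mettl1-null libraries. Without WT replicate 3 the number of lower calls was 33, without WT replicate 1 it was 3, and without Mettl1-null replicate 1 or 3 it was 4.

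The H9C2 calls touched each complex. In complex I, Ndufb2 RNA was 34.9, 39.8 and 29.9 CPM in WT and 21.9, 22.7 and 24.7 in Mettl1-null cells (-0.59 ± 0.11, adjusted p = 0.00424). Ndufa5, a subunit of the matrix arm, was at 46.7, 49.6 and 38.6 CPM against 24.1, 34.3 and 31.0 (-0.59, adjusted p = 0.0142). Ndufa9, which sits near the quinone site, was at 109, 109 and 93.8 CPM against 77.1, 79.0 and 84.1 (-0.37, adjusted p = 0.00528). Ndufv1 (-0.23, adjusted p = 0.0165) and Ndufa6 (-0.35, adjusted p = 0.0416) were lower too. In these 5 genes all Mettl1-null libraries lay under all WT libraries. Elsewhere, Uqcrfs1 changed by -0.22 (adjusted p = 0.0454), Ndufa4 by -0.44 (adjusted p = 0.00692), Atp5f1b, the rat name of Atp5b, by -0.18 (adjusted p = 0.0348) and Cycs by -0.24 (adjusted p = 0.0272). Cox6a2 was the only higher call: 6.15, 7.65 and 4.31 CPM in WT and 13.6, 13.3 and 12.6 in Mettl1-null cells (1.12 ± 0.18, adjusted p = 0.00268). Its share of the Cox6a2 and Cox6a1 counts was 1.49% ± 0.21 in WT and 3.56% ± 0.38 in Mettl1-null cells (SD, n = 3 each, exact permutation p = 0.1, the smallest that 3 against 3 allows, two-sided). The muscle isoforms Cox7a1 and Cox8b were next to absent in these cells, with 49 and 17 counts over the 6 libraries. Atp5if1, the inhibitor of ATP synthase, was at 0.07 (adjusted p = 0.72). Cox6a2, Ndufb2, Ndufa4 and Ndufa9 kept their calls under all 12 alternatives. Uqcrfs1 lost its call in 8 of them, Ndufa6 in 7 and Atp5f1b in 6. Of the cristae and supercomplex genes, 6 of 14 were lower in these cells and none higher, among them Immt (-0.66, adjusted p = 2.86e-05) and Chchd3 (-0.85, adjusted p = 1.84e-05), which shape the cristae, and complex II had 2 of 4 lower.

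**Figure D5:**
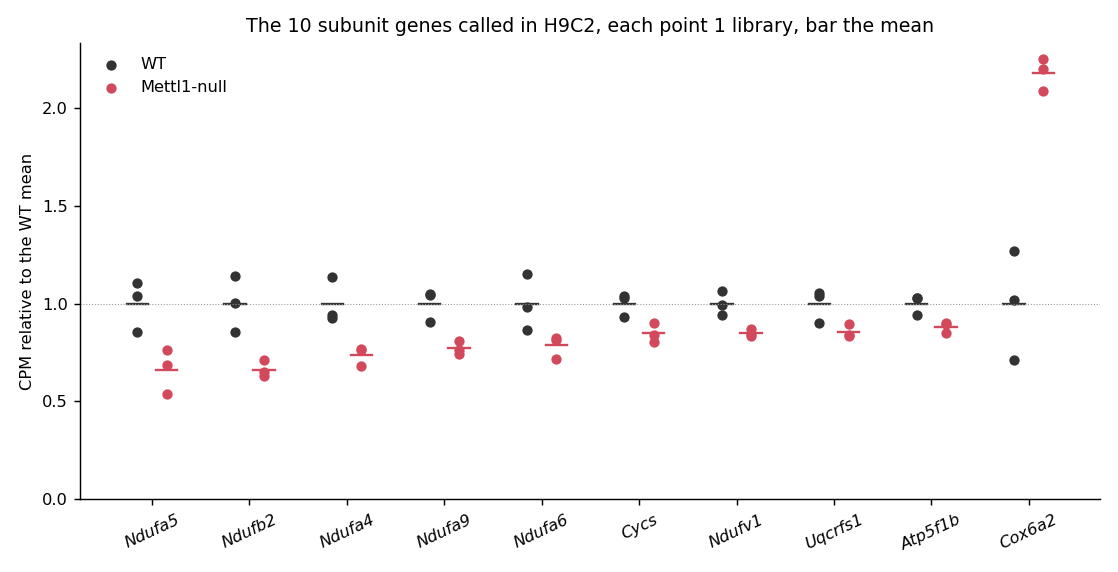
CPM relative to the WT mean (y axis, from 0) of the 10 subunit genes called in H9C2, with 3 WT and 3 Mettl1-null libraries each and bars for the means. Cox6a2 is higher in all Mettl1-null libraries than in any WT library, and the other 9 genes are lower in all of them.

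Uqcrfs1 and Atp5b (Atp5f1b) were called lower in both heart RNA and H9C2. Ndufb2 and Cox6a2 were called in opposite directions in the 2 systems. The heart RNA call of Ndufb2 was lost in 2 of 10 alternatives, 1 of them DESeq2. Differences between heart and cell line were not tested, since species, tables and depth differ.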

How the data were processed

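The authors deposited raw whole-number counts: reads per gene for the RNA of hearts and H9C2, and footprints per reading frame for Ribo-seq. Among tools, the submitters' processing notes list Bowtie, Bowtie2, HISAT2 and STAR (aligners), StringTie and featureCounts, cutadapt and DESeq2, and the builds GRCm38 and Rnor_6.0. Which tool made which table, the strand setting and the handling of reads with several matches are not given in the sources used here. Columns were matched to samples by name. Gene IDs were paired with symbols through a name table (55141 of 55487 mouse IDs, all but 396 of 32883 rat IDs). For each gene the frame with the most footprints was kept (98.914% of all footprints), and for all subunit genes it was the longest frame.

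Each comparison was fitted on the whole table with edgeR 4.0.16 in R 4.3.3: TMM factors, filterByExpr, the quasi-likelihood test and Benjamini-Hochberg adjustment at 0.05 over all tested genes. Heart RNA, heart footprints and H9C2 were fitted apart, and translational efficiency as an interaction (genotype by assay) over genes that passed both filters. SEs are the log2 change divided by the root of the F statistic. The scripts were tested on simulated counts. Within a genotype, RNA and footprint libraries of the same number deviated together (correlation over 12662 genes 0.193 in Ctrl and 0.111 in cKO). For the replicate block of translational efficiency the numbers were therefore taken to pair the assays. The labels number the replicates of both assays alike, and the reading of a shared number as a pair comes from the data. The main interaction fit left this pairing out. With 2 libraries a genotype their deviations mirror each other, so each of these correlations is only 1 independent value. The main fits treated the libraries as independent, which the labels do not show. In heart RNA, footprints and H9C2 the replicate block joined same-numbered libraries of both groups. Isoform shares were compared with exact permutation tests. Alternatives were other scaling factors, DESeq2 1.42.0, other count filters, other frames, the replicate block and leaving out each library. Named genes are, per comparison and complex, up to 4 called genes per direction with the smallest adjusted p, the isoform pairs, Cycs, Cyc1, Atp5if1, the highest and lowest footprint densities, and genes called in several comparisons or with differing signs. Some other genes were named after their values were seen. The subunit genes and the lists were chosen with earlier results of these data known. The tRNA libraries were not analysed here, and the values of 1 subunit gene are not reported here. Intervals and tests cover these libraries and not animals.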

Additional observations from a re-analysis of the deposited data

Results flagged for a closer look

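In 7 subunit genes the libraries of heart RNA and of H9C2 separated in opposite directions, out of 69 subunit genes tested in both (10.1%). Over all 10369 genes matched by symbol this share was 11.6%, so the count is near the background. Another 9 subunit genes (13%) separated in the same direction, beside 14.1% of all matched genes, so this count is near the background too. Among them were Uqcrfs1, Atp5b, Ndufa11, Ndufa9 and Cox7b, all lower in both. In each of the 7 all Mettl1-deficient libraries lay on one side of all control libraries in the heart and on the other side in H9C2, and the difference between the systems was not tested. The log2 changes in heart RNA and in H9C2 were 0.13 and -0.23 for Ndufv2, -0.51 and 0.09 for Ndufs1, 0.18 and -0.44 for Ndufa4, 0.27 and -0.24 for Cycs, 0.56 and -0.59 for Ndufb2, 0.30 and -0.28 for Ndufs8 and -0.27 and 1.12 for Cox6a2. Ndufb2 and Cox6a2 passed the edgeR test in both systems, Ndufs1 and Ndufs8 in the heart alone, Ndufa4 and Cycs in H9C2 alone and Ndufv2 in neither. In the heart the Ndufb2 call was lost in 2 of 10 alternatives, 1 of them DESeq2. Ndufb2 had 9.78 and 10.9 CPM in Ctrl heart RNA, the least RNA for its footprints of all subunit genes.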

How the results depend on the processing

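Counts of called subunit genes moved as follows. With library totals, heart RNA had 24 higher and 5 lower and footprints 7 lower, while the median of all genes shifted by 0.08 and 0.07 on the log2 scale. With DESeq2, heart RNA had 7 higher and 6 lower and H9C2 had 19 lower. With the replicate block, heart RNA had 25 higher, and translational efficiency had 1 higher (Cox7c, 0.67, adjusted p = 0.00532) and 1 lower (Uqcr10, -0.41, adjusted p = 0.0212). Same-numbered libraries correlated at 0.03 in heart RNA, -0.01 in footprints and -0.16 to 0.12 in H9C2. The main fits therefore did not pair Ctrl with cKO or WT with Mettl1-null libraries. The replicate block of these comparisons did join same-numbered libraries of both groups, as an alternative only. Leaving out 1 library gave 8 to 21 higher and 5 to 13 lower in heart RNA, 2 to 6 higher and 7 to 14 lower in footprints, and 1 to 4 higher and 3 to 33 lower in H9C2. Per codon of the frame, footprint shares were 94.74% in control and 94.17% in Mettl1-deficient libraries for Cox6a2, 61.39% in the latter for Cox7a1, 0.42% and 0.3925% for Cox4i2 and 0.7334% in the latter for Ndufa4l2, which follows from the frames' lengths. For the counts of calls the cause was not tested. Calls kept under all alternatives numbered 11 of 24 in heart RNA, 5 of 20 in footprints and 4 of 10 in H9C2, and no called gene reversed. Computing TMM factors within each assay, an alternative chosen after seeing the data, left translational efficiency with no call. Leaving out the 6 genes with few footprints, chosen likewise, gave 6 higher and 13 lower in footprints and no call in translational efficiency.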
